A study of Mus musculus with 36 samples.

Results

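Cytokinesis genes and proliferation markers were followed in the hearts of CD-1 mice through 8 genes of the 32750 gene symbols in the deposited expression table. Anln, Ect2, Racgap1, Prc1, Cit and Birc5 act when a cell divides in its last step, and Mki67 and Top2a mark cells that are in the cell cycle. The genes were named for their roles, with earlier results of these data known, and the rule itself uses no measured value. Each had 1 row in the table. Levels are FPKM, fragments scaled to the length of the transcript and to the size of the library, so genes of different length can be compared.

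RNA sequencing covered 36 libraries in 16 groups. Cardiomyocytes isolated on Miltenyi columns gave 3 libraries each at postnatal day 4 (P4), at postnatal day 0 (P0), 7 days after resection and 7 days after a sham operation. Whole ventricle gave 2 libraries each at P0, at P4, at P7 and from adults, as well as 2 each 1 day after resection, 1 day after sham operation, 7 days after resection and 7 days after sham operation. Dissociated adult cardiomyocytes kept in culture as explants gave 2 libraries each at 0, 24, 48 and 72 hours. All groups share the CD-1 background, and no label names a transgene or drug. The labels give neither the age at surgery nor the extent of resection, and they do not say whether replicates came from separate animals or from pools. The p-values below therefore measure the spread between these libraries, which may be technical.

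Every library is labelled as cardiomyocytes, whole ventricle included. The 6 cardiomyocyte marker genes analysed summed to between 3312 and 24693 FPKM, with at most 1 of the 6 listed at 0 in a library. The 6 endothelial markers summed to between 7.17 and 442 FPKM, and the 6 fibroblast markers to between 4.10 and 1965 FPKM, with the highest values of both in isolated cell libraries. The isolated cell libraries thus hold transcripts of these markers in amounts that differ between libraries. Between 10411 and 13075 gene models reached 1 FPKM in a library. The number of reads behind each value is unknown, so no counting interval is given.

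In a dividing cell the exchange factor Ect2 switches on the small GTPase RhoA at the cell equator, after binding Racgap1, a subunit of the centralspindlin complex. Anln encodes anillin, a scaffold that ties actin, myosin and septins into the contractile ring. Prc1 bundles the microtubules of the spindle midzone. Cit encodes citron kinase, which organises the midbody. Birc5 encodes survivin, the subunit that places the chromosomal passenger complex on centromeres and then on the midzone. Mki67 encodes the Ki-67 antigen that coats mitotic chromosomes, and Top2a encodes the topoisomerase that untangles replicated DNA. Mouse cardiomyocytes leave the cell cycle soon after birth, and many replicate their DNA and divide their nucleus without cytokinesis, which leaves them binucleate. The chosen genes cover the machinery that separates daughter cells and, through Mki67 and Top2a, cells that are in the cycle. The roles of Mki67 and Top2a given here, on mitotic chromosomes and replicated DNA, do not mark entry into the cycle.

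On mouse build mm9, as the deposited table gives it, Birc5 (ENSMUSG00000017716) lies on chromosome 11 from 117710564 to 117717069 and Top2a (ENSMUSG00000020914) on chromosome 11 from 98854256 to 98885503. Prc1 (ENSMUSG00000038943) lies on chromosome 7 from 87439350 to 87461144 and Mki67 (ENSMUSG00000031004) on chromosome 7 from 142881470 to 142908062. Racgap1 (ENSMUSG00000023015) spans 99450926 to 99482087 of chromosome 15, Ect2 (ENSMUSG00000027699) spans 26996143 to 27052800 of chromosome 3, Cit (ENSMUSG00000029516) spans 116295286 to 116458956 of chromosome 5, and Anln (ENSMUSG00000036777) spans 22135657 to 22193650 of chromosome 9. A second gene model, 6330403N20Rik, lies inside the Prc1 interval, and it never passed 0.185 FPKM.

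Promoter sequences are shown for 5 of the genes because these 5 hold short elements known from cell cycle genes, for which they were picked; the other 3 promoters lack one or more of the elements. The sequences come from RefSeq on build GRCm38.p6, which is not the build of the expression table, and each window holds 200 bases before the start site and 20 bases from it onward, read 5′ to 3′ on the gene's strand. Capitals mark TTTGAA and TTCGAA, forms of the cell cycle homology region bound by complexes that contain MuvB, and CCAAT, the box bound by NF-Y. Each was searched on both strands, so that TTCAAA and ATTGG also appear in capitals. The windows are chr3:27153859-27154078 (minus strand) for Ect2, chr15:99651637-99651856 (minus strand) for Racgap1, chr7:80294251-80294470 (plus strand) for Prc1, chr7:135716360-135716579 (minus strand) for Mki67 and chr11:99024170-99024389 (minus strand) for Top2a. No marked element overlaps another in these windows.
Ect2: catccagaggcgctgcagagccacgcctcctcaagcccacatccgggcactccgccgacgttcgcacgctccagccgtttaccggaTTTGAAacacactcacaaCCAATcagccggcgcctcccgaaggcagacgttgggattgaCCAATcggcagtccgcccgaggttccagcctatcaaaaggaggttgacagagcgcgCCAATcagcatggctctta
Racgap1: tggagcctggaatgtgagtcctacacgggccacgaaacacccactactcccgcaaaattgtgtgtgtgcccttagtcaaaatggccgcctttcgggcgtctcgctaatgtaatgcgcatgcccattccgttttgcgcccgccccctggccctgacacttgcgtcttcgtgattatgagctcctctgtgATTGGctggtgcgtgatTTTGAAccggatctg
Prc1: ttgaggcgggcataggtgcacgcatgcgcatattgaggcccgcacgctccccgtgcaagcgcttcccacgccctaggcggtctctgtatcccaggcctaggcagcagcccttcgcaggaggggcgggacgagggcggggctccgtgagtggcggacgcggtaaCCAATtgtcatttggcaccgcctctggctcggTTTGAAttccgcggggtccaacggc
Mki67: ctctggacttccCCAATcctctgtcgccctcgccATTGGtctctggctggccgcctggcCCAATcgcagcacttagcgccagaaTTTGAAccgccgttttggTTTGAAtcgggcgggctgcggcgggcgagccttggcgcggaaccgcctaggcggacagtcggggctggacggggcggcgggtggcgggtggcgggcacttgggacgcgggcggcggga
Top2a: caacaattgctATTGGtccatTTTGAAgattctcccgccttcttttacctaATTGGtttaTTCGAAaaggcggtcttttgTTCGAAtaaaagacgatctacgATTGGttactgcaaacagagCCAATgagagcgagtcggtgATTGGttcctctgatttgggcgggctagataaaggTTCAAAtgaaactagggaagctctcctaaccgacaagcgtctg

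The search itself ran over the whole 300-base window listed first for each gene, and all 8 genes had one. TTTGAA was present in 6 of the 8 windows, those of Anln, Ect2, Racgap1, Prc1, Mki67 and Top2a, against 18.1% of 27025 mouse promoter windows of the same length. Both a form of the cell cycle homology region and CCAAT were present in the 5 windows printed above, against 7.7% of the 27025. The Top2a window held 2 copies of TTTGAA, 2 of TTCGAA and 6 of CCAAT, the most of the 8. TTCGAA was in 1.57% of all windows and CCAAT in 37.9%. The Anln window held TTTGAA without CCAAT, and the Cit and Birc5 windows held none of the 3 letter strings, which says nothing about other windows of those genes. These matches are descriptions of sequence and were not measured as binding.

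The 8 genes were higher in neonatal and operated heart than in adult heart and cultured adult cardiomyocytes, where most values were close to 0. For Cit the gap was small: isolated P4 cells measured 0.666, 0.657 and 1.94 FPKM, and adult ventricle 0.595 and 0.181 FPKM. Mean level was highest in P4 ventricle for Anln, Ect2, Racgap1, Cit, Mki67 and Top2a, and highest in ventricle 1 day after resection for Prc1 and Birc5. For all 8 genes the 5 lowest groups were adult ventricle and the explants. Neighbours in the order mostly overlapped: for Top2a, P4 ventricle (37.4 and 49.6 FPKM), ventricle 1 day after resection (37.5 and 48.6 FPKM) and ventricle 7 days after resection (43.4 and 36.7 FPKM) could not be separated. These 3 groups held the highest means of Racgap1, Prc1, Birc5, Mki67 and Top2a. For these genes, except Birc5, all libraries of the 3 groups lay above every P0 library. The operated groups were not tested against P0, and how many of all genes separate in the same way was not counted. For Ect2 the 11 groups of postnatal and operated hearts formed 1 continuous run of overlapping levels, and the first gap came between P7 ventricle (2.30 and 2.92 FPKM) and the explants. Among the 11 groups other than adult ventricle and explants, Top2a had the highest mean FPKM of the 8 genes and Cit the lowest, with Cit means between 0.838 FPKM in isolated P0 cells and 3.43 FPKM in P4 ventricle.

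**Figure D1:**
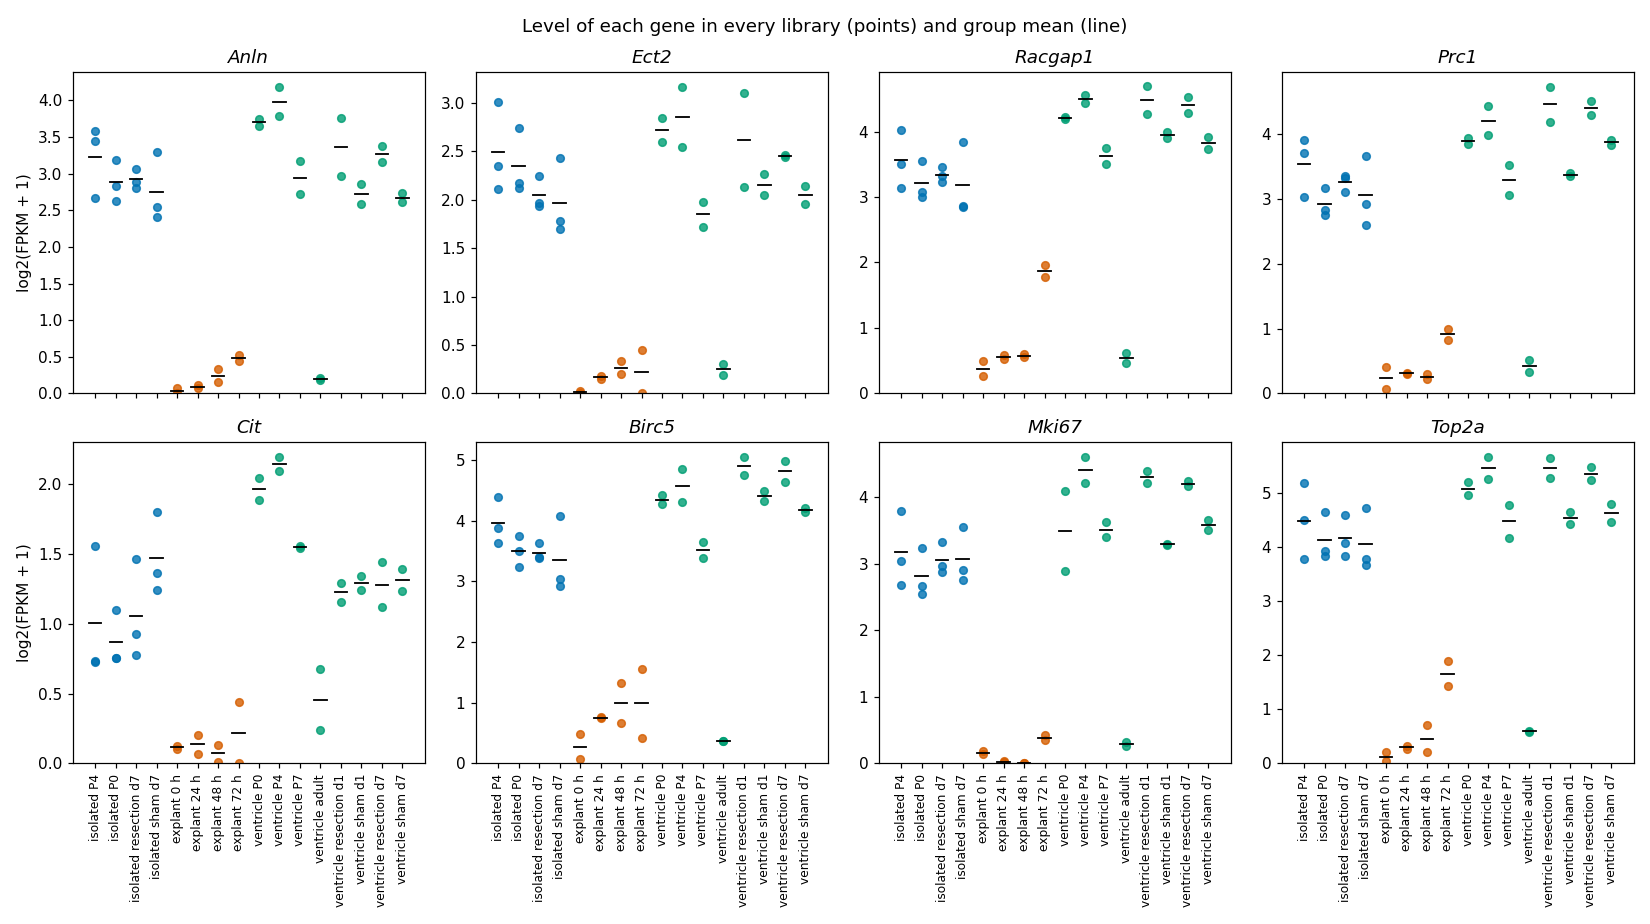
Each panel plots 1 gene as log2(FPKM + 1) in all 36 libraries (points), with the group mean as a line; isolated cardiomyocytes are blue, explants orange and whole ventricle green. All 8 genes sit near 0 in adult ventricle and in most explants, and for Cit the 2 resection groups of ventricle do not stand above the sham groups.

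In whole ventricle the genes were near 0 in adults, and at P7 Birc5 and Racgap1 were lower than at P0; no member was called between P4 and P0. Birc5 measured 20.4 and 18.4 FPKM at P0, 18.7 and 27.9 FPKM at P4, 9.44 and 11.5 FPKM at P7, and 0.294 FPKM in both adult libraries. Racgap1 measured 17.7 and 17.2 FPKM at P0, 20.6 and 22.7 FPKM at P4, 10.3 and 12.4 FPKM at P7, and 0.379 and 0.537 FPKM in adults. Both genes thus had P7 libraries below every P0 and P4 library, and adult libraries far below those. Top2a measured 29.9 and 35.6 FPKM at P0, 37.4 and 49.6 FPKM at P4, 16.9 and 26.4 FPKM at P7, and 0.500 and 0.509 FPKM in adults. Anln measured 11.6 and 12.4 FPKM at P0, 12.8 and 17.1 FPKM at P4, 5.59 and 8.04 FPKM at P7, and 0.132 and 0.156 FPKM in adults. For these 2 genes as well, no P7 library reached the lowest P0 library. Prc1 measured 14.3 and 13.4 FPKM at P0, 14.8 and 20.6 FPKM at P4, 7.34 and 10.5 FPKM at P7, and 0.424 and 0.259 FPKM in adults. Ect2 measured 5.03 and 6.16 FPKM at P0, 4.81 and 7.93 FPKM at P4, 2.30 and 2.92 FPKM at P7, and 0.141 and 0.239 FPKM in adults. In both genes the adult libraries were lowest and the P7 libraries next, and the Ect2 libraries of P0 and P4 overlapped. Cit measured 3.12 and 2.71 FPKM at P0, 3.27 and 3.58 FPKM at P4, 1.91 and 1.94 FPKM at P7, and 0.595 and 0.181 FPKM in adults. Mki67 measured 6.40 and 16.2 FPKM at P0, 17.6 and 23.4 FPKM at P4, 9.56 and 11.3 FPKM at P7, and 0.243 and 0.196 FPKM in adults. Mki67 was the exception at P0, where its libraries differed by more than those of any other member and enclosed both P7 values.

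Changes were tested with limma on log2(FPKM + 1) over all genes that reached 1 FPKM in at least 2 libraries of the fit, and calls were made where the p adjusted by the Benjamini-Hochberg method was under 0.05. At P4 against P0, none of the 8 genes was called, against 1.35% of 14201 genes; Mki67 alone of the 8 had an unadjusted p under 0.05. Mki67 had a log2 fold change of 0.92 (SE 0.28) with an adjusted p of 0.154, and the other estimates lay between 0.13 for Ect2 and 0.39 for Top2a. Without P0 replicate 2, Mki67 was called, at 1.53 (adjusted p = 0.00283). At P7 against P0, Birc5 fell by 0.83 on the log2 scale (SE 0.18, adjusted p = 0.0115) and Racgap1 fell by 0.59 (SE 0.16, adjusted p = 0.0284), so 2 of 8 were lower, against 8.28% of all genes. The estimates of Anln (-0.75), Ect2 (-0.87), Prc1 (-0.60), Cit (-0.42) and Top2a (-0.60) were not called, with adjusted p between 0.0528 and 0.12. The estimate of Mki67 was 0.02. The median over the 8 genes was -0.60 and over all genes -0.14. The call of Racgap1 was lost at an adjusted p of 0.0634 with median-of-ratios scaling and at 0.0503 with no filter on low values. Among markers of other cells at P7 against P0, 4 of 7 erythroid and 3 of 6 fibroblast markers were called higher, and 4 of 5 epicardial and 4 of 5 atrial markers lower. Erythroid markers summed to 2872 and 3288 FPKM at P7, against 1381 and 1237 FPKM at P0, and atrial markers to 82.7 and 167 FPKM at P7, against 1262 and 359 FPKM at P0. Their part in the lower Birc5 and Racgap1 values was not tested. No member was called without P0 replicate 1 or without P7 replicate 1, and 1 was called without P0 replicate 2.

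The step between P4 and P7 was compared after these values had been seen. All 8 estimates were below 0 with an unadjusted p under 0.05 by limma, a level that 1863 of the 14201 genes reached in either direction. Birc5 fell by 1.06 on the log2 scale (SE 0.18, adjusted p = 0.0163), Racgap1 by 0.88 (SE 0.16, adjusted p = 0.0173), and Top2a by 0.99 (SE 0.21, adjusted p = 0.0407). Prc1 fell by 0.92 (SE 0.20, adjusted p = 0.0432) and Anln by 1.03 (SE 0.23, adjusted p = 0.0485). Thus 5 of 8 were called lower, against 0.972% of all genes, while Ect2 (-1.002, adjusted p = 0.0914), Cit (-0.60, adjusted p = 0.105) and Mki67 (-0.90, adjusted p = 0.15) were not. The median over the 8 genes was -0.96, against -0.09 over all genes. These calls rest on the small groups: 1 member was called without P4 replicate 1, none without P4 replicate 2 or without P7 replicate 1, and 3 without P7 replicate 2. With a pseudocount of 0.1 in place of 1 the number called was 2. No marker of another cell type was called between P7 and P4, where limma called only 92 genes higher and 138 lower. An unadjusted p under 0.05 was reached by 5 of 7 erythroid, 3 of 6 smooth muscle and pericyte, and 2 of 6 fibroblast markers. It was also reached by 2 of 7 macrophage and leukocyte markers and by 1 each of the endothelial, epicardial and atrial markers. The part of cell content in the lower member values was not tested.

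**Figure D2:**
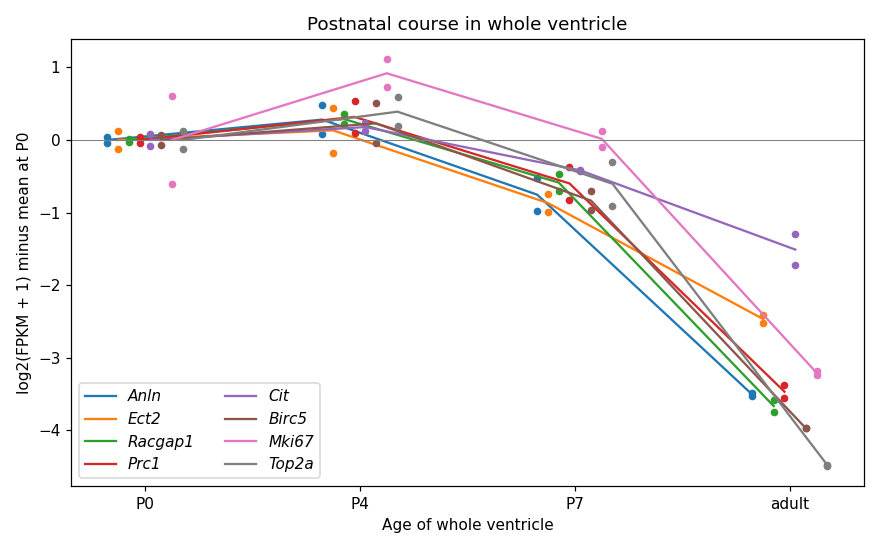
Log2(FPKM + 1) of each gene in whole ventricle minus its own mean at P0, by age; points are libraries (2 per age) and lines join the means. All 8 lines are lower at P7 than at P4 and lowest in the adult; Mki67 stands apart by its spread at P0, and Cit ends highest, with a log2 fold change of -1.51 in adults against P0.

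In adult ventricle all 8 genes were called lower than at P0, against 43.8% of all genes. Every adult value of the 8 was under 1 FPKM, so they passed the filter only through the other ventricle groups, where they are high. The filtered calls and shares against P0 and P7 therefore support nothing for them by themselves. With no filter on low values limma again called all 8 lower than at P0, with adjusted p of at most 0.000125. It called 6267 genes lower in that fit. Top2a fell by 4.48 on the log2 scale (SE 0.21, adjusted p = 1.06e-08), Birc5 by 3.97 (SE 0.18, adjusted p = 8.3e-09), Racgap1 by 3.67 (SE 0.16, adjusted p = 4.71e-09) and Anln by 3.51 (SE 0.23, adjusted p = 1.68e-07). Prc1 fell by 3.47, Mki67 by 3.21, Ect2 by 2.47 and Cit by 1.51, with adjusted p of at most 1.01e-05. The median of the 8 was -3.49, against -0.36 over all genes. As a ratio of mean FPKM, adult levels were between 0.012 of the P0 level for Anln and 0.133 for Cit. The 8 genes were also all lower in adults than at P7, against 30% of all genes, with log2 fold changes between -1.09 for Cit and -3.88 for Top2a. All 16 calls held under each alternative tried and without any 1 library. Beside these values, fibroblast marker sums were 388 and 370 FPKM in adults and 966 and 691 FPKM at P0, and macrophage and leukocyte marker sums were 122 and 161 FPKM in adults and 31.2 and 24.3 FPKM at P0, and the part of cell content in these changes was not tested. In bulk samples, fewer cells that express a gene and less RNA of it per cell cannot be told apart.

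One day after resection, Prc1, Mki67 and Top2a were higher in ventricle than after sham operation. Prc1 measured 17.2 and 25.5 FPKM after resection, against 9.24 and 9.50 FPKM after sham. Mki67 measured 17.7 and 20.1 FPKM after resection, against 8.89 and 8.76 FPKM after sham. Top2a measured 37.5 and 48.6 FPKM after resection, against 24.0 and 20.4 FPKM after sham. In all 3 the lower resected library lay well above the higher sham library. Log2 fold changes were 1.08 for Prc1 (SE 0.20, adjusted p = 0.00864), 0.92 for Top2a (SE 0.21, adjusted p = 0.0213) and 1.02 for Mki67 (SE 0.28, adjusted p = 0.0389). These 3 of 8 compare with 1.39% of all genes called higher.

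Birc5 measured 25.9 and 32.1 FPKM after resection, against 19.0 and 21.3 FPKM after sham. Racgap1 measured 18.3 and 24.8 FPKM after resection, against 14.998 and 14.0 FPKM after sham. Anln measured 6.80 and 12.5 FPKM after resection, against 5.03 and 6.24 FPKM after sham. None of these genes was called: the estimates were 0.50 for Birc5 (adjusted p = 0.0981), 0.53 for Racgap1 (adjusted p = 0.0503) and 0.64 for Anln (adjusted p = 0.0992). Ect2 measured 3.36 and 7.57 FPKM after resection, against 3.14 and 3.79 FPKM after sham (log2 fold change 0.46, adjusted p = 0.286). Cit measured 1.23 and 1.45 FPKM after resection, against 1.54 and 1.36 FPKM after sham (log2 fold change -0.07, 95% interval -0.43 to 0.30, adjusted p = 0.847). The Cit interval lay below the estimates of the other 7 members, and its sign turned, to 0.04 and 0.12, under median-of-ratios scaling and quantile normalization. The median over the 8 genes was 0.58, against -0.16 over all genes.

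Scaling changed which of these genes passed at day 1. Median-of-ratios scaling moved the median of all genes to -0.01, and 6 members were then called higher, among them Racgap1 (adjusted p = 0.00969), Birc5 (adjusted p = 0.0239) and Anln (adjusted p = 0.0411). Quantile normalization called 4, and Mki67 was not among them (adjusted p = 0.0569). No member was called without sham replicate 2, 1 without resection replicate 2 and 5 without resection replicate 1. Summed macrophage and leukocyte markers, 7 genes, were 28.2 and 30.0 FPKM after resection and 69.0 and 106 FPKM after sham, and 5 of the 7 were called lower. Summed endothelial markers were 134 and 192 FPKM after resection and 209 and 214 FPKM after sham. Whether cell content contributes to the rise of Prc1, Mki67 and Top2a was not tested.

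At 7 days after resection, no member passed the test over all genes in ventricle against sham operation. The levels below are descriptions of 2 libraries a group, and how many of all genes separate in the same way was not counted. Top2a measured 43.4 and 36.7 FPKM after resection, against 26.6 and 21.0 FPKM after sham. Birc5 measured 30.6 and 23.9 FPKM after resection, against 16.7 and 17.4 FPKM after sham. Racgap1 measured 22.1 and 18.4 FPKM after resection, against 14.2 and 12.3 FPKM after sham. For each of these genes the lower resected library lay above the higher sham library. Prc1 measured 21.7 and 18.5 FPKM after resection, against 13.3 and 14.0 FPKM after sham. Mki67 measured 18.0 and 17.0 FPKM after resection, against 11.7 and 10.4 FPKM after sham. Anln measured 9.38 and 7.93 FPKM after resection, against 5.09 and 5.66 FPKM after sham. Ect2, at 4.48 and 4.41 FPKM after resection against 3.41 and 2.88 FPKM after sham, had the same order at a lower level. Cit again did not separate, with 1.72 and 1.17 FPKM after resection and 1.35 and 1.62 FPKM after sham.

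The day 7 log2 fold changes were 0.73 for Top2a, 0.63 for Birc5, 0.62 for Mki67, 0.60 for Anln, 0.58 for Racgap1, 0.53 for Prc1, 0.40 for Ect2 and -0.03 for Cit. With limma 0 of 8 were called, against 0.162% of all genes; 6 of the 8 had an unadjusted p under 0.05, as did 1547 of the 14201 genes, and the lowest adjusted p was 0.197, for Racgap1. The median was 0.59 over the 8 genes and 0.11 over all genes. The difference of the resection effect, day 7 minus day 1, was not called for any member by limma, against 5.91% of all genes, and none reached 0.05 without adjustment either. For Prc1 the difference was -0.56 (95% interval -1.18 to 0.06, adjusted p = 0.239), and for Mki67 it was -0.40 (95% interval -1.25 to 0.46). In sham ventricles alone, Prc1 stood higher at day 7 (13.3 and 14.0 FPKM) than at day 1 (9.24 and 9.50 FPKM), with a log2 fold change of 0.50 and an adjusted p of 0.112. That estimate was called after either rescaling (0.65, adjusted p = 0.0267 with median-of-ratios scaling, and 0.61, adjusted p = 0.0372 with quantile normalization); no other member was called between the sham groups, against 16.2% of all genes. Beside the day 7 result, macrophage and leukocyte marker sums were 137 and 100.3 FPKM after resection and 60.7 and 58.1 FPKM after sham. Lung epithelial markers summed to 212 and 92.4 FPKM after resection and 2.47 and 25.1 FPKM after sham, and the part of other cells in the day 7 values was not tested.

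In cardiomyocytes isolated 7 days after surgery, no gene of the 8 was called between resection and sham. Top2a measured 13.2, 23.0 and 15.8 FPKM after resection, against 12.6, 11.7 and 25.4 FPKM after sham. Prc1 measured 7.64, 9.27 and 9.02 FPKM after resection, against 6.58, 5.08 and 11.6 FPKM after sham. In both genes the sham group held the lowest and the highest library. Mki67 measured 6.34, 9.10 and 6.79 FPKM after resection, against 6.49, 5.75 and 10.7 FPKM after sham. Cit measured 0.897, 1.75 and 0.713 FPKM after resection, against 1.37, 1.57 and 2.49 FPKM after sham. Log2 fold changes ran from -0.41 for Cit (95% interval -0.98 to 0.15) to 0.20 for Prc1 (95% interval -0.39 to 0.80), with 0 of 8 called by limma, 1.09% of the 13080 tested genes being called, and 0 at an unadjusted p under 0.05. The interval for Mki67, -0.66 to 0.63, still holds the estimate found in ventricle at day 7. The small positive estimates of Ect2, Birc5 and Top2a turned negative under both rescalings, and that of Racgap1 under median-of-ratios scaling.

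The difference of the day 7 resection effect, isolated cells minus ventricle, was below 0 for all 8 genes, between -0.32 for Ect2 and -0.63 for Mki67, with a median of -0.43 against 0.02 over all genes. By limma 0 of 8 were called, against 0.0809% of all genes, with 0 at an unadjusted p under 0.05, the widest interval being that of Top2a from -1.60 to 0.34. The isolated libraries after resection also differed in content. Lung epithelial markers summed to 576, 172 and 1119 FPKM after resection, against 0.435, 0.451 and 2.62 FPKM after sham, and all 5 were called higher. Endothelial markers summed to 143, 368 and 15.98 FPKM after resection, against 408, 442 and 380 FPKM after sham. Atrial markers summed to 730, 1315 and 739 FPKM after resection, against 41.2, 55.8 and 91.5 FPKM after sham, and 4 of 5 were called higher. Fibroblast markers summed to 801, 1965 and 883 FPKM after resection, against 158, 206 and 968 FPKM after sham, with none of 6 called and all 6 at an unadjusted p under 0.05. Erythroid markers summed to 10252, 4952 and 72171 FPKM after resection, against 3746, 4075 and 5274 FPKM after sham. The part of these in the estimates for the 8 genes was not tested.

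**Figure D3:**
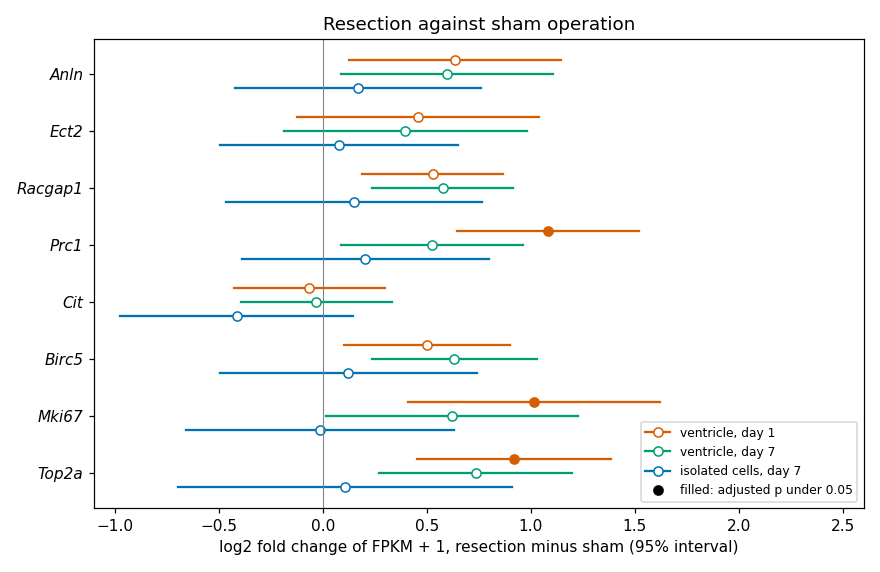
Log2 fold change of FPKM + 1, resection minus sham, for each gene in ventricle at day 1 (orange), ventricle at day 7 (green) and isolated cardiomyocytes at day 7 (blue); bars are 95% intervals of the fit and filled points have an adjusted p under 0.05. Filled points are Prc1 (1.08), Mki67 (1.02) and Top2a (0.92) at day 1, and the Cit estimates lie below 0 in all 3 comparisons, although the day 1 estimate of Cit turns to 0.04 with median-of-ratios scaling and to 0.12 with quantile normalization.

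In isolated cardiomyocytes the estimates of all 8 genes were above 0 at P4 against P0, and no member passed the test. Prc1 measured 7.13, 12.05 and 14.0 FPKM at P4, against 6.07, 5.74 and 7.98 FPKM at P0. Birc5 measured 11.4, 13.7 and 19.8 FPKM at P4, against 10.3, 8.42 and 12.5 FPKM at P0. Mki67 measured 5.45, 7.27 and 13.0 FPKM at P4, against 4.83, 5.33 and 8.49 FPKM at P0. The groups overlapped for all 8 genes. Log2 fold changes lay between 0.14 for Cit and 0.63 for Prc1 (SE 0.27), with a median of 0.35 against 0.09 over all genes; 0 of 8 were called by limma, against 0.00765% of all genes, with 1, Prc1, at an unadjusted p under 0.05. In every isolated P0, P4 and sham group all 8 genes were highest in the library numbered 3, and after resection 7 of the 8 were highest in the library numbered 2. The same libraries had the largest median-of-ratios factors of their groups, at 0.957 (P0), 0.896 (P4), 0.859 (sham) and 0.844 (resection). The other factors were 0.759 and 0.762 (P0), 0.888 and 0.854 (P4), 0.636 and 0.597 (sham), and 0.711 and 0.796 (resection). A larger factor means generally higher values in that library. At P4 the factors were close together, while Top2a measured 12.7, 21.6 and 35.1 FPKM in libraries 1, 2 and 3. The part of scale in the order of the members was not tested, and how many of all genes shared that order was not counted. Beside this, endothelial markers at P4 summed to 111, 18.8 and 231 FPKM in libraries 1, 2 and 3, against 18.9, 13.7 and 85.6 FPKM at P0. Erythroid markers summed to 376, 1100 and 1672 FPKM at P4, against 21042, 20734 and 989 FPKM at P0, with 4 of 7 at an unadjusted p under 0.05 and none called. The P0 library numbered 3, where all 8 members were highest, was thus the lowest of its group in erythroid markers, and their part in the member values was not tested. The P4 effect in isolated cells minus that in ventricle was called for no member by limma, against 0.00674% of all genes, with 0 at an unadjusted p under 0.05; the estimates ran from -0.56 for Mki67 to 0.31 for Prc1.

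Set against whole ventricle of the same stage, isolated cardiomyocytes had lower values of most of the 8 genes, but so did they of most genes. At P0, Racgap1 measured 7.01, 7.47 and 10.7 FPKM in isolated cells, against 17.7 and 17.2 FPKM in ventricle. Cit measured 0.686, 0.688 and 1.14 FPKM in isolated cells, against 3.12 and 2.71 FPKM in ventricle. For both genes no isolated library reached the ventricle. At P0, 6 of 8 genes were called lower, against 54% of all genes, with a median log2 fold change of -0.90 against -0.57 over all genes. At P4, 6 of 8 were called lower, against 41% of all genes, with a median of -0.85 against -0.46. At 7 days after sham operation, Racgap1 (-0.64, adjusted p = 0.0272), Prc1 (-0.81, adjusted p = 0.00813) and Birc5 (-0.83, adjusted p = 0.0235) were called lower, 3 of 8 against 46.7% of all genes, although the Racgap1 libraries overlapped. Almost none of these calls held after rescaling. After median-of-ratios scaling, which brings the median of all genes to 0.01 at P0, no member was called at P0, and at P4 Cit alone was called (-0.73, adjusted p = 0.033). After sham operation the same scaling called 2 other members, Anln (0.77, adjusted p = 0.00482) and Cit (0.67, adjusted p = 0.0103), both higher in isolated cells. Quantile normalization called none in any of the 3 comparisons. Ect2 turned positive in all 3 comparisons under both rescalings, at most 0.53 after sham, as did Mki67 and Top2a after sham, and Racgap1 turned to 0.09 after sham with median-of-ratios scaling. Endothelial marker sums at P0 were between 13.7 and 85.6 FPKM in isolated cells and 254 and 209 FPKM in ventricle, and fibroblast sums between 192 and 280 FPKM in isolated cells and 966 and 691 FPKM in ventricle. Erythroid sums were 21042, 20734 and 989 FPKM in isolated P0 cells and 1381 and 1237 FPKM in P0 ventricle, with 4 of 7 markers called higher, and preparation and cell content cannot be told apart.

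In adult explants all 8 genes began near 0, and Racgap1 and Top2a had their highest levels at 72 hours. Racgap1 measured 0.408 and 0.200 FPKM at 0 hours, 0.445 and 0.508 FPKM at 24 hours, 0.477 and 0.511 FPKM at 48 hours, and 2.91 and 2.42 FPKM at 72 hours. Top2a measured 0.0239 and 0.159 FPKM at 0 hours, 0.206 and 0.248 FPKM at 24 hours, 0.154 and 0.624 FPKM at 48 hours, and 2.70 and 1.68 FPKM at 72 hours. Both genes stayed under 1 FPKM until 48 hours and were over it in both libraries at 72 hours. Birc5 measured 0.0505 and 0.390 FPKM at 0 hours, 0.695 and 0.674 FPKM at 24 hours, 0.592 and 1.51 FPKM at 48 hours, and 0.342 and 1.95 FPKM at 72 hours. Its replicates parted at 48 and 72 hours, when only the library numbered 2 passed 1 FPKM. Mki67 measured 0.133 and 0.105 FPKM at 0 hours, 0.0153 and 0.0202 FPKM at 24 hours, 0.00277 and 0.00551 FPKM at 48 hours, and 0.274 and 0.339 FPKM at 72 hours. Prc1 measured 0.323 and 0.0457 FPKM at 0 hours and 0.993 and 0.774 FPKM at 72 hours, and Anln was listed at 0 and at 0.0568 FPKM at 0 hours and had 0.364 and 0.444 FPKM at 72 hours. Ect2 and Cit were each listed at 0 in 1 library at 72 hours, with 0.365 and 0.357 FPKM in the other. At 72 hours Mki67 was thus far below Top2a, the other marker.

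Only Racgap1, Birc5 and Top2a reached 1 FPKM in 2 explant libraries, and they did so through late libraries. Genes that enter a fit through the group where they are high had to differ, so the filtered fit at 72 hours against 0 hours supports nothing for them: it called Racgap1 and Top2a, with 46.9% of 12181 genes called higher and a median of 0.76 over all genes. With no filter on low values all 8 genes entered, and 5 were called higher at 72 hours, against 20.2% of 24195 genes. The log2 fold changes there were 1.49 for Racgap1 (adjusted p = 0.00384), 1.53 for Top2a (adjusted p = 0.00869), 0.68 for Prc1 (adjusted p = 0.017), 0.45 for Anln (adjusted p = 0.00976) and 0.22 for Mki67 (adjusted p = 0.00954). The 24195 genes include those that the filter removes, so 20.2% and 46.9% are not like backgrounds. Anln (0.364 and 0.444 FPKM) and Mki67 (0.274 and 0.339 FPKM) were called at levels near 0. Birc5, at 0.72, was not called (adjusted p = 0.318). After median-of-ratios scaling, which brought the median of the filtered genes to 0.04, the estimates were 1.10 for Racgap1 and 1.24 for Top2a. Without either replicate at 72 hours Racgap1 and Top2a did not pass the filter. By limma 0 members were called at 24 hours, against 18.1% of all genes, and 0 at 48 hours, against 42.5%, with 0 at an unadjusted p under 0.05 at either time. Same-numbered explants deviated together, and with the replicate number as a block the shares of all genes were 40.4% at 24 hours, 62.2% at 48 hours and 71.2% at 72 hours in either direction, while the members called remained 0, 0 and 2. Without the filter, Mki67 was called lower at 48 hours (-0.16, adjusted p = 0.0372), at levels near 0. For explants at 0 hours against adult ventricle, limma called no member, against 33.8% of all genes, with 0 at an unadjusted p under 0.05. The estimates lay between -0.10 for Birc5 and -0.47 for Top2a. All member values in both groups were under 1 FPKM, where the added 1 shrinks differences. Mean Ect2 of 0.0098 FPKM in explants and 0.190 FPKM in ventricle gave only -0.24. The lack of calls in this comparison therefore does not show equal levels. With a pseudocount of 0.1, Anln, Ect2 and Top2a were called lower there.

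**Figure D4:**
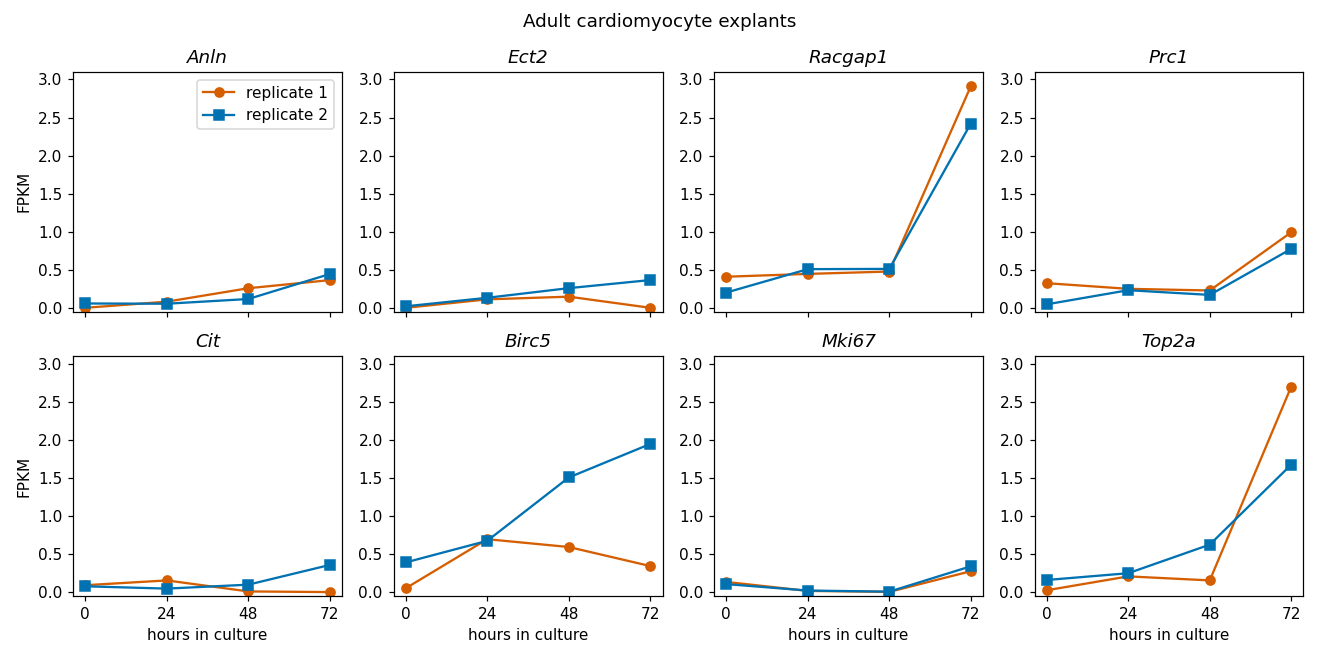
FPKM of each gene in adult cardiomyocyte explants at 0, 24, 48 and 72 hours in culture, with 1 line for each replicate number and the same vertical scale in all panels. Racgap1 (2.91 and 2.42 FPKM) and Top2a (2.70 and 1.68 FPKM) have the highest means at 72 hours, and Birc5 is high in replicate 2 only, at 1.95 FPKM, where it exceeds Top2a.

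Marker sums in explants changed in the same period. Macrophage and leukocyte markers summed to 2.48 and 1.80 FPKM at 0 hours, 6.46 and 3.24 FPKM at 24 hours, 20.3 and 41.6 FPKM at 48 hours, and 137 and 83.5 FPKM at 72 hours. Cardiomyocyte markers summed to 23018 and 19287 FPKM at 0 hours and 3363 and 3312 FPKM at 72 hours. Whether cells other than cardiomyocytes carry the Racgap1 and Top2a of 72 hours was not tested.

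The balance between the 6 cytokinesis genes and the 2 proliferation markers was measured in each library as the mean log2(FPKM + 1) of the 6 minus that of Mki67 and Top2a. It was -1.38 ± 0.18 in ventricle 1 day after resection and -0.93 ± 0.14 after sham (SD, n = 2 each), with no overlap between the groups. At day 7 it was -1.35 ± 0.05 in ventricle after resection and -1.12 ± 0.18 after sham (SD, n = 2 each), again without overlap. In isolated cells at day 7 it was -0.93 ± 0.18 after resection and -0.93 ± 0.04 after sham (SD, n = 3 each), with overlap. Over age in ventricle it was -0.44 and -1.18 at P0, -1.22 and -1.24 at P4, -1.13 and -1.26 at P7, and -0.05 and -0.08 in adults, where all genes are near 0. No p is given for this score because it is formed from the chosen genes. With 1 added before the logarithm, low genes move less than high genes at an equal ratio, so the score also depends on level. In isolated P4 cells it was -0.68, -0.84 and -1.08 at summed levels of the 8 genes of 53.8, 79.6 and 117 FPKM. After resection at day 1 the order was reversed, with -1.50 at 128 FPKM and -1.25 at 173 FPKM. The sham sums at day 1 were 85.8 and 85.4 FPKM. The part of level in the score differences was not tested. The Cit share of the summed FPKM of the 8 genes was 0.961% and 0.842% at day 1 after resection, against 1.79% and 1.60% after sham.

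**Figure D5:**
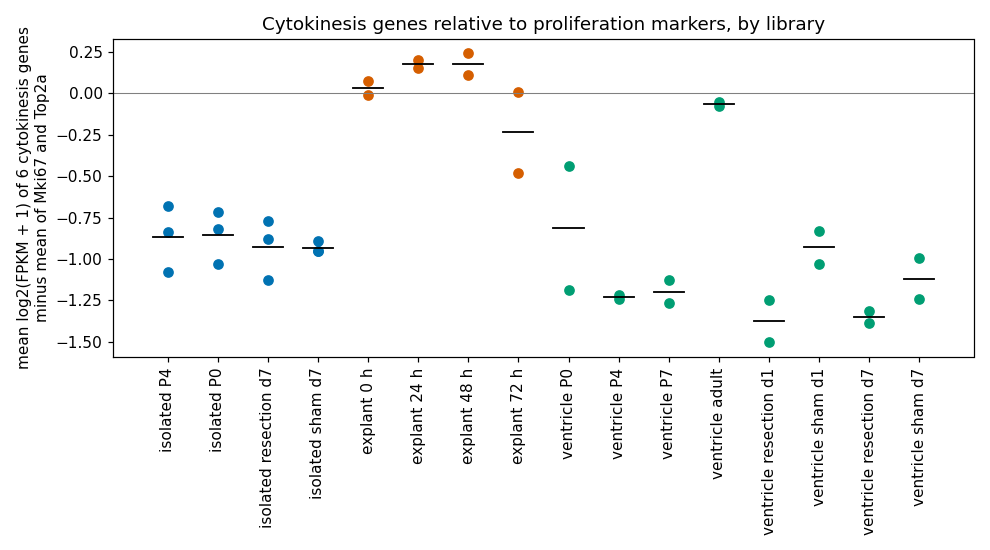
Mean log2(FPKM + 1) of Anln, Ect2, Racgap1, Prc1, Cit and Birc5 minus the mean of Mki67 and Top2a, in each library (points) with the group mean (line). In ventricle both resection groups lie below their sham groups, and at P0 the 2 libraries are far apart, at -0.44 and -1.18. The score also depends on the level of the genes.

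The members varied together, with Cit the loosest. Across the 16 group means, pairs of the 8 genes had Pearson r between 0.863 and 0.996 on the log2 scale, with a median of 0.975, a range that takes in the low adult and explant groups. Across the 11 groups without adult ventricle and explants r lay between 0.309 (Cit with Birc5) and 0.979 (Racgap1 with Top2a), with a median of 0.694. The median r of Cit with the other members was 0.513 there, against 0.919 for Racgap1, 0.917 for Prc1 and 0.919 for Top2a. These points share library, preparation and scaling, so the values are descriptions. Within groups, over deviations of the 26 libraries in those 11 groups from their group means, the median r was 0.810.

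The genes whose course over the 16 groups was most like the mean of the 8, among 14826 genes compared, were Ncaph (r = 0.997), a condensin subunit, Kif11 (0.995), the spindle motor Eg5, Nuf2 (0.995), a kinetochore protein, and Nek2 (0.994), a centrosome kinase. Ccnb1, Melk, Lmnb1, Kif4, Diap3 and Lig1 followed, with r of at least 0.993. Taken singly, Anln was most like Ccna2 (r = 0.998), Ect2 most like Bub1b (0.993), Racgap1 most like Tpx2 (0.993), Top2a most like Ncaph (0.995), and Prc1, Birc5 and Mki67 all most like Nuf2 (0.998, 0.989 and 0.996). Cit was most like Zfp846 (0.970), a gene outside the cell division lists, and it had the lowest best value.

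Other genes of cell division, listed apart from the 8 members, were counted in the same fits. In adult against P0 ventricle, 19 of 25 further cytokinesis genes, 21 of 21 mitosis genes, 20 of 20 DNA synthesis genes and 12 of 13 transcriptional regulators of the cell cycle were called lower, against 43.8% of all genes. Among them were the midzone kinesin Kif20a (-3.09), the passenger subunit Cdca8 (-3.42), Cdk1 (-4.15), the reductase subunit Rrm2 (-3.83) and the factor Foxm1 (-2.85). At P7 against P4, 4 of 25 cytokinesis genes, 6 of 21 mitosis genes, 5 of 20 DNA synthesis genes and 2 of 13 regulators were lower, against 0.972% of all genes, with Kif23, the partner of Racgap1 in centralspindlin, at -1.02 (adjusted p = 0.0432) and Foxm1 at -1.05 (adjusted p = 0.00416). One day after resection, 2 of 25 cytokinesis genes were higher, Cep55 of the midbody (1.01, adjusted p = 0.00272) and the formin Diap3 (0.77, adjusted p = 0.021), and 1 was lower, the trafficking GTPase Rab35 (-0.67, adjusted p = 0.006). In the same comparison 6 of 21 mitosis genes, 5 of 20 DNA synthesis genes and 3 of 13 regulators were higher, against 1.39% of all genes, with Nusap1 at 1.00, Cdc6 at 1.03 and E2f1 at 0.70. Median log2 fold changes at day 1 were 0.05 for the cytokinesis genes, 0.60 for mitosis, 0.54 for DNA synthesis and 0.29 for the regulators, against -0.16 over all genes. The lists are not alike. The cytokinesis list also holds genes well expressed in adult ventricle, such as Myh9 (mean 27.6 FPKM) and Arf6 (11.3 FPKM). In explants 16 of its 25 genes passed the filter, against 4 of 21 mitosis genes. Its medians at day 1 and day 7 thus do not follow dividing cells alone. At day 7 in ventricle 0 genes of these 4 lists were called by limma, against 0.162% of all genes. An unadjusted p under 0.05 was reached by 7 of 25 cytokinesis genes, 16 of 21 mitosis genes, 15 of 20 DNA synthesis genes and 5 of 13 regulators. Of all 14201 genes, 1547 reached it. The medians were 0.23, 0.64, 0.52 and 0.30, against 0.11 over all genes. In isolated cells limma called 0 genes of the 4 lists, against 0.00765% of all genes at P4 against P0 and 1.09% after resection against sham. At P4 against P0, 2 of 24 cytokinesis and 4 of 21 mitosis genes had an unadjusted p under 0.05, as did 344 of 13080 genes. After resection against sham, 1 of 21 mitosis genes had one, as did 1684 of 13080 genes. In explants at 72 hours, where 46.9% of all genes were called higher and the filter favours late levels, the cytokinesis genes with the largest increases were the non-muscle myosin Myh9 (2.05) and Arf6 (1.88). Among the mitosis genes, Ccnb2 (1.04) and Tpx2 (1.04) were higher and Cenpa (-3.01) lower.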

How the data were processed

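Per the labels, Trizol RNA went into libraries of more than 1 kit type, read on GA-2 or Hi-Seq machines. The table deposited by the authors gives FPKM for 36128 gene models, with 1 column for each of 36 libraries. The submitters' processing notes name Bowtie 0.12.7, TopHat 1.3.2, Cufflinks 1.2.1, Cuffdiff and build mm9, and the annotation and the Cuffdiff version are not given in the sources used here. Depth is unknown.

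For each symbol the row with the highest mean FPKM was kept. Log2(FPKM + 1) was fitted by group means with limma 3.58.1 (R 4.3.3), with a trended variance prior, separately for 12 isolated, 16 ventricle and 8 explant libraries, and over all 36 for comparisons between preparations. P-values are two-sided and adjusted over all genes with at least 1 FPKM in at least 2 libraries. The fit was tested on simulated data. Other settings tried were quantile normalization, median-of-ratios scaling, a replicate block, 1 fit over all libraries, a pseudocount of 0.1, dropping the filter, and leaving out each library. No 2 libraries were identical.

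Same-numbered explants deviated together in all 6 pairs of times (r between 0.383 and 0.623), and the labels do not say what they share. Of the 18 pairs of isolated groups, 6 passed 0.1, with r from -0.581 to 0.425 and a median of 0.011. Of the 28 pairs of ventricle groups, 2 passed 0.1, with r from -0.135 to 0.184. The 8 members are named in every comparison, and from each further list at most the 2 largest increases and decreases called. The members and lists were chosen with earlier results of these data known. Some listed genes were not analysed here.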

Additional observations from a re-analysis of the deposited data

How the results depend on the processing

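All 8 members stayed called lower in adults under every alternative and without any 1 library. In both adult comparisons the filter admits the members only through groups other than adults. The member count moved elsewhere. At P7 against P0 it was 2, 1 with no filter, 1 with median-of-ratios scaling, 4 with a replicate block and 0 in a single fit over all libraries. At P7 against P4 it was 5, 2 with a pseudocount of 0.1, 2 with no filter and 0 in the single fit. At day 1 after resection it was 3, 6 with median-of-ratios scaling and 1 in the single fit. Between sham groups it was 0, and 1 with median-of-ratios scaling or quantile normalization. In explants it was 0 at 48 hours and 1 with no filter, and 2 at 72 hours, 5 with no filter and 3 in the single fit; the filter admits members there only through late libraries. Between isolated cells and ventricle it was 6 at P0, 4 with a pseudocount of 0.1, and 0 with median-of-ratios scaling or quantile normalization; 6 at P4, 3 with a pseudocount of 0.1, 1 with median-of-ratios scaling and 0 with quantile normalization; and 3 after sham operation, 2 with a pseudocount of 0.1, 2 with median-of-ratios scaling, 0 with quantile normalization and 5 with a replicate block. Racgap1 after sham operation reversed to 0.0924 with median-of-ratios scaling. For explants at 0 hours against adult ventricle it was 0, and 3 with a pseudocount of 0.1. The replicate block changed no other count by over 1.5 times. Leaving out 1 library gave counts from 0 to 1 at P4 against P0, 0 to 2 at P7 against P0, 0 to 3 at P7 against P4, 0 to 5 at day 1, 0 to 2 at 72 hours, 3 to 7 at P0, 1 to 7 at P4 and 0 to 5 after sham operation for isolated cells against ventricle, and no change elsewhere. Where a group is left with 1 library, that library is assumed to vary like the others. The causes were not tested, except that scaling brings the median of all genes close to 0 by construction. Groups of 2 or 3 libraries and unknown depth limit every comparison.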

Other observations

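The ratio of Mki67 to Top2a, both in FPKM, was 0.214 in P0 ventricle replicate 1 and between 0.336 and 0.565, with a median of 0.430, in the other 25 libraries outside adult ventricle and explants. The other 7 members of that library lay within 1.5 times of its partner, and atrial markers summed to 1262 FPKM in it and 359 FPKM in its partner.

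Cit made up 22% and 7.64% of the summed FPKM of the 8 genes in the adult ventricle libraries, and between 0.825% and 3.60% in the 26 libraries outside adult ventricle and explants. Among isolated cells its share was 2.86%, 3.60% and 2.68% after sham operation, the highest of the 4 isolated groups.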
